A study of Mus musculus with 12 samples.

Results

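Potassium channel genes were examined on 12 arrays of mouse models of Alzheimer's disease, and most of those that differed between the prefrontal cortex and the hippocampus had more signal in cortex. The genes were chosen by symbol, as the 17 name stems from Kcna to Kcnv that cover the voltage-gated, inward-rectifying, two-pore, and calcium- or sodium-activated channels with their auxiliary subunits. The gene table held 90 such symbols, and 120 probes of the array measured 89 of them. The scanner software marks a spot that is well above its background, and 75 of the 89 genes carried this mark on at least 6 of the 12 arrays. These 75 are described below, beside 15438 genes in all that passed the same filter.

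The first group was the prefrontal cortex of C57BL/6 mice aged 1.5, 4, 17, or 22 months, with 1 array for each age. The second was the hippocampus of C57BL/6 mice carrying a human transgene. These were mice overexpressing a mutated human NCSTN (10 months old), wild-type human MAPT (12 months old), or the mutated human transgenes of the 5xFAD line (6 months old), again with 1 array each. The promoters of the transgenes are not given in the sources used here. The third was the hippocampus of ICR mice that were 7 weeks old when treated. Of these, 1 pool had received 5 μM and another 10 μM amyloid-β peptide (Aβ) into the ventricle, and 1 pool 2.5 mg/kg and another 3 mg/kg of streptozotocin, a glucose analog toxic to insulin-producing cells, by the same route, all 14 days earlier. The last had received 1 mg/kg of scopolamine, a blocker of muscarinic receptors, into the peritoneum 30 min earlier. Every array carried RNA pooled from 3 animals, so the spread within a group is that between ages, transgenes, or treatments, and no array of untreated hippocampus was analysed here.

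Potassium channels let potassium leave a neuron and thereby set its resting potential, the shape of its action potential, and how often it can fire. Kv channels open on depolarization, Kir channels pass current near rest, two-pore channels leak at all voltages, and calcium- or sodium-activated channels couple spiking to the ions that entered before. Cortical and hippocampal pyramidal cells are known to carry different sets of these channels, and astrocytes use some of them to clear potassium from the extracellular space.

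Before the results, 3 features of the arrays bear on every comparison. Xist, the RNA of the inactive X chromosome, was well above background on all 3 transgenic arrays (log2 signal 9.19 to 9.59) and on none of the other 9, whereas the Y-linked Ddx3y and Eif2s3y were well above background on the other 9 arrays and on none of the 3. The transgenic arrays therefore go against the methods, which describe male mice throughout, and region, sex, transgene, and age cannot be told apart between cortex and transgenic hippocampus. Between cortex and ICR hippocampus, region, strain, age, and treatment cannot be told apart. Results are therefore also given against each hippocampus group alone. The tissue labels were checked against marker genes: 6 of 7 measured markers of cortical layers were higher in cortex by limma (adjusted p below 0.05) and 9 of 10 markers of the hippocampus were lower, with a median difference of -3.30 in log2 signal. Markers of the striatum (5 of 7) were also higher in cortex. Markers of the choroid plexus, which lies in the ventricles beside the hippocampus, were lower (6 of 7). The mean log2 signal of the choroid plexus list ran from 4.24 to 8.54 in cortex, from 10.8 to 11.3 in the transgenic, and from 6.92 to 12.0 in the ICR hippocampus. In tissue, fewer cells of a type and less RNA per cell cannot be told apart.

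The promoters of 4 genes are shown because, among the genes that passed the test described below and leaving out Kcnn2, these had the widest differences between the regions in each direction. The sequences are from RefSeq (GRCm38.p6). Each window holds 250 bases before and 50 after the annotated start, in the direction of the gene, with capitals for a GC box (GGGCGG) or a CRE half-site (TGACG) on either strand. The TATA box (TATAAA) was searched in the same way and was in none of the 4 windows. Kcnh5 (chr12:75177283-75177582, minus strand) and Kcnf1 (chr12:17176839-17177138, minus strand) were higher in cortex, and Kcnk10 (chr12:98578164-98578463, minus strand, the first of 2 starts in the table) and Kcnk13 (chr12:99964249-99964548, plus strand) were lower.
Kcnh5: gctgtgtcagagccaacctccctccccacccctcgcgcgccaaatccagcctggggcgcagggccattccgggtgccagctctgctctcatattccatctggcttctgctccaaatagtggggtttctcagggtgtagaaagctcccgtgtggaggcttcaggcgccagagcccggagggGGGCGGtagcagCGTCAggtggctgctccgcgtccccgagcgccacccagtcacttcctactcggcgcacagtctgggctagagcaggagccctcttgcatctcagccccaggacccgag
Kcnf1: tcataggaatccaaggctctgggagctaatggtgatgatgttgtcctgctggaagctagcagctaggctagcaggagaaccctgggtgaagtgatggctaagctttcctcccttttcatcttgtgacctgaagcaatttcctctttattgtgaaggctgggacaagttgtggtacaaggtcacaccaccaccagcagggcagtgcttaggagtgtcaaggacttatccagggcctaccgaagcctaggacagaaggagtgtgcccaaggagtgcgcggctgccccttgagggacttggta
Kcnk10: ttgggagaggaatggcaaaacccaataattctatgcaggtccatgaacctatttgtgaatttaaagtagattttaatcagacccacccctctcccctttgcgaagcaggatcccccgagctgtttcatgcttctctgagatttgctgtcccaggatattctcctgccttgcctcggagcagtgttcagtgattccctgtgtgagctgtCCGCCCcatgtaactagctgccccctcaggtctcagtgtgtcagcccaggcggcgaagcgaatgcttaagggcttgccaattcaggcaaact
Kcnk13: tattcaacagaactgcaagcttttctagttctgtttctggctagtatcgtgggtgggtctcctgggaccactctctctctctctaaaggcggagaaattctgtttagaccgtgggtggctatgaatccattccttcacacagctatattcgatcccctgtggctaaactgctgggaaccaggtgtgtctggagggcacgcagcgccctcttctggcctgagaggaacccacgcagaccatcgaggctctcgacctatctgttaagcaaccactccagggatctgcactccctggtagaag

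A GC box was present in 35.9% of the 27025 promoters of the table and in 35 of the 66 promoters found for the potassium channel genes (53.0%). A CRE half-site was in 21.0% of all promoters and in 15 of the 66 (22.7%), and a TATA box in 14.2% of all and in 2 of the 66 (3.03%). The GC content had a median of 52.7% over all promoters and of 60.7% over the 66. Among genes higher in cortex, 17 of 27 promoters found held a GC box, and among those lower in cortex 5 of 6. A match describes the letters of the window and is not a bound site.

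Cortex was compared with hippocampus to ask which channel genes differ between the regions whatever the model. The test was limma with cortex set against the mean of both hippocampus groups, and p-values were adjusted by the Benjamini-Hochberg method over all genes tested. Of the 75 potassium channel genes, 43 passed an adjusted p of 0.05 (57.3%), beside 39.8% of all genes. More of them were higher than lower in cortex: 35 were higher (46.7%, beside 20.7% of all genes) and 8 were lower (10.7%, beside 19% of all genes). At 2-fold or more, 15 were higher (beside 4.12% of all genes) and 0 lower (beside 4.61%). On all 4 cortex arrays the signal was above that on all 8 hippocampus arrays for 27 genes, beside 11.4% of all genes. It was below that on all 8 for 4 genes, beside 9.83% of all genes. The median difference was 0.29 in log2 signal over the 75 genes (quartiles -0.10 and 0.78) and 0.016 over all genes (quartiles -0.26 and 0.29).

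Set against each hippocampus group alone, which share the cortex arrays, 26 genes were higher in cortex both times (34.7%, beside 9.53% of all genes) and 4 lower both times (5.33%, beside 8.5% of all genes), namely Kcnab1, Kcnk10, Kcnk13, and Kcnn2. Against the transgenic group 32 were higher (12.4% of all genes) and 4 lower (10.5%). Against the ICR group, whose mice are of the same sex as the cortex mice by the genes above, 32 were higher (23% of all genes) and 12 lower (22.9%). Of the 43 called genes, 30 kept their call under all other normalizations and filters tried, with 2 groups in place of 3, with the position on the slide as a block, and without any 1 array. Of the other 13, 12 are given below with at least 1 setting or array that cost them the call, though not every such setting is listed.

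**Figure D1:**
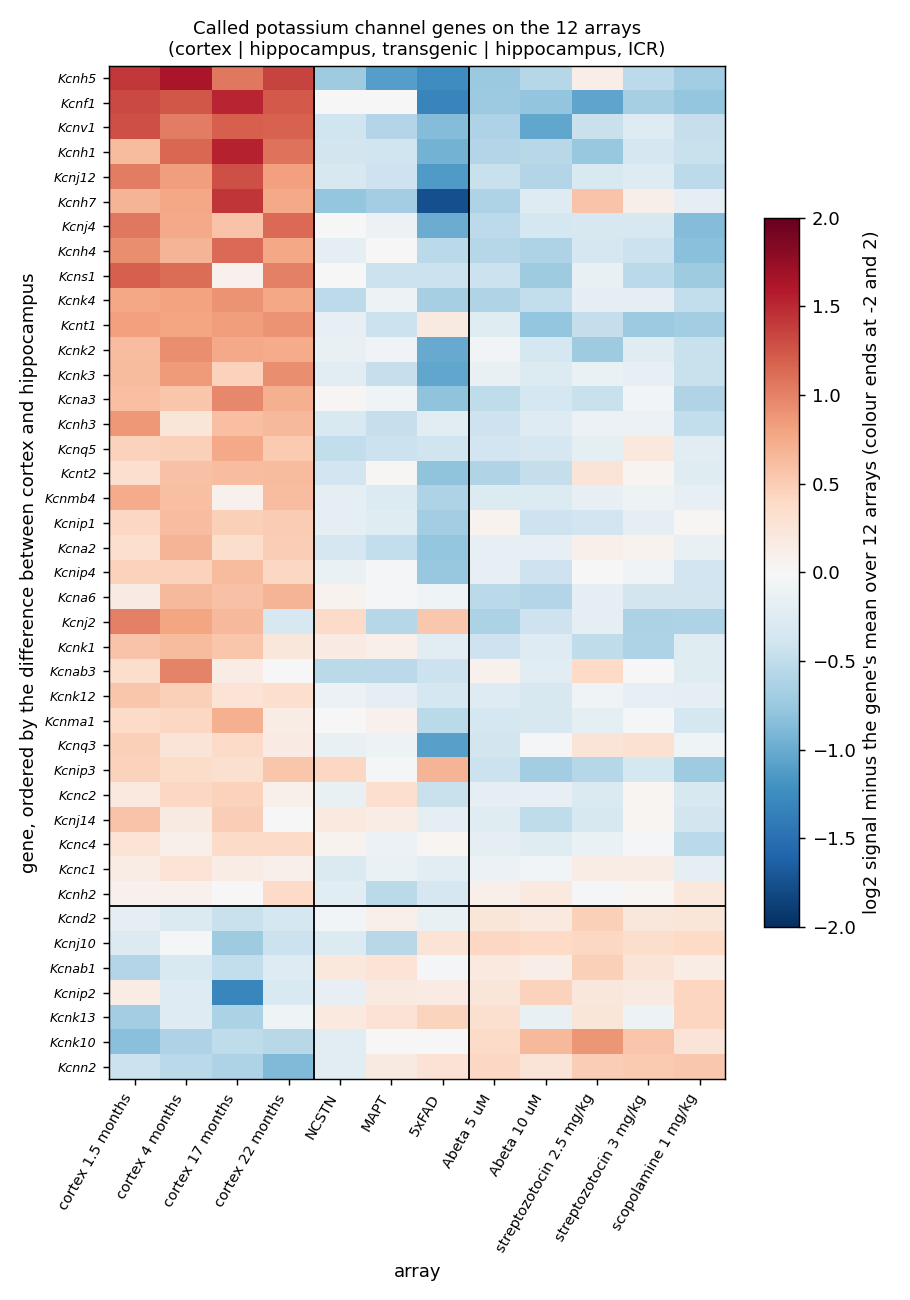
Log2 signal of 41 of the 43 called potassium channel genes on the 12 arrays, as the difference from each gene's mean over the arrays. Rows are ordered by the difference between cortex and hippocampus, and the horizontal line parts the 34 genes higher in cortex from the 7 lower.

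The EAG, ERG, and ELK channels stood highest. These are voltage-gated channels with a cyclic nucleotide-binding homology domain, and all 6 measured members were higher in cortex, with a median difference of 1.38. Kcnh5 (Eag2) had the largest difference of all potassium channel genes. Its log2 signal was 9.70, 9.92, 9.34, and 9.63 in cortex at 1.5, 4, 17, and 22 months, 7.58, 7.18, and 7.05 on the NCSTN, MAPT, and 5xFAD arrays, and 7.54, 7.71, 8.41, 7.77, and 7.60 with Aβ at 5 and 10 μM, streptozotocin at 2.5 and 3 mg/kg, and scopolamine. All cortex arrays were thus above all hippocampus arrays, the closest being streptozotocin at 2.5 mg/kg. The difference was 2.11 (SE 0.17), a 4.32-fold higher signal in cortex (limma, adjusted p = 6.75e-06).

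Kcnh1 (Eag1), the closest relative of Kcnh5, gave 7.93, 8.45, 8.84, and 8.38 in cortex in the same order of ages. It gave 6.93, 6.91, and 6.36 on the transgenic arrays and 6.72, 6.75, 6.55, 6.96, and 6.85 on the ICR arrays. The groups did not overlap, and the difference was 1.65 (SE 0.17, limma adjusted p = 2.89e-05). Kcnh7 (Erg3) was 2.8-fold higher in cortex (log2 difference 1.49, SE 0.26). Its signal was 5.31 on the 5xFAD array, the lowest of all, and 7.64 with streptozotocin at 2.5 mg/kg, close to the lowest cortex array at 7.75. Kcnh4 (Elk1) and Kcnh3 (Elk2) were higher in cortex by 1.28 and 0.89 without overlap between the regions. Kcnh2 (Erg1), the hERG channel of the heart's repolarization, differed by only 0.28 (adjusted p = 0.0308). Its call rested on the transgenic group, where the difference was 0.51, against 0.04 for the ICR group, and it was lost without any 1 of 4 arrays (cortex at 1.5, 4, or 22 months, or MAPT), with an adjusted p of up to 0.104. Kcnh6 and Kcnh8 did not pass the filter and were well above background on 4 and 5 arrays. Their probes went opposite ways, with differences of 1.50 and 0.58 for Kcnh6 and of -0.69 and -1.30 for Kcnh8.

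**Figure D2:**
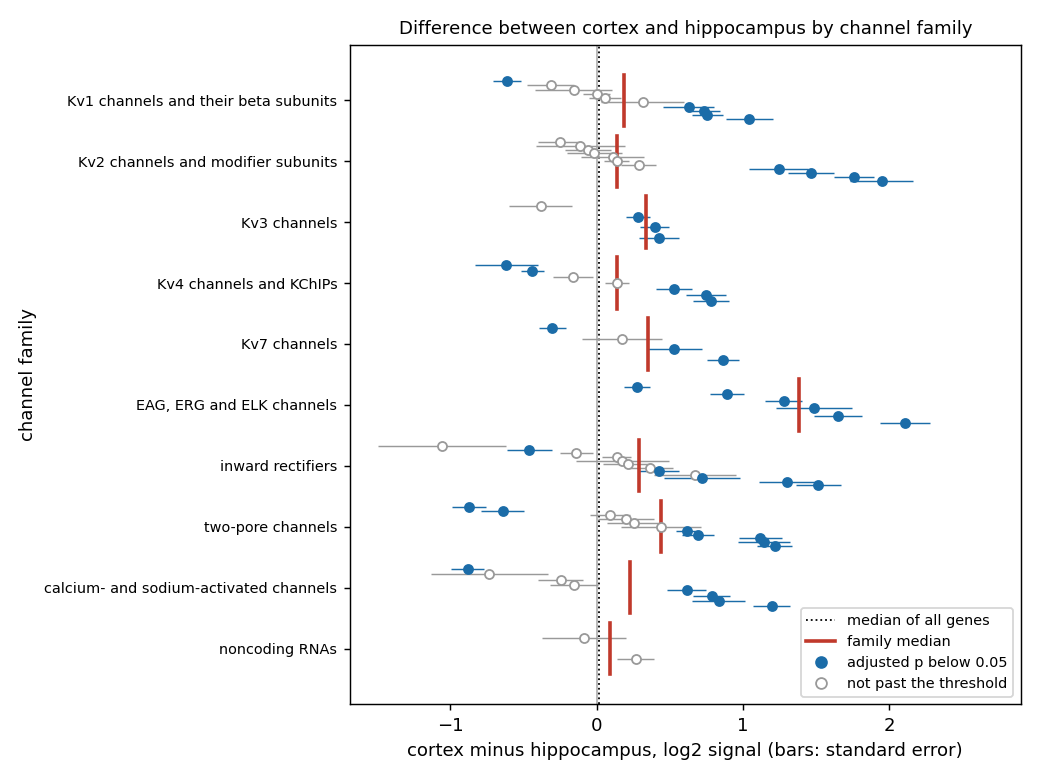
Difference between cortex and hippocampus in log2 signal for the 75 potassium channel genes by family, with the standard error as bars. Filled points passed an adjusted p of 0.05, red lines are family medians, and the dotted line is the median of all genes at 0.016. All 6 EAG, ERG, and ELK channels lie to its right.

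The Kv2 family and the modifier subunits, which form no channel alone but join Kv2 subunits, had 4 of 11 measured members higher in cortex and 0 lower. Kcnf1 (Kv5.1) gave 9.67, 9.58, 9.87, and 9.57 in cortex, 8.36, 8.34, and 7.02 on the NCSTN, MAPT, and 5xFAD arrays, and 7.62, 7.55, 7.29, 7.68, and 7.57 on the ICR arrays. The cortex arrays lay close together and well above the rest, and the 5xFAD array was the lowest of all 12. The signal was 3.86-fold higher in cortex (log2 difference 1.95, SE 0.22, limma adjusted p = 5.97e-05).

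Kcnv1 (Kv8.1) had the smallest p-value of the potassium channel genes. It gave 11.80, 11.55, 11.71, and 11.70 in cortex, 10.12, 9.93, and 9.66 on the transgenic arrays, and 9.90, 9.48, 10.08, 10.27, and 10.06 on the ICR arrays, so that the hippocampus groups covered nearly the same range and cortex lay apart. The difference was 1.76 (SE 0.14, limma adjusted p = 5.18e-06). Kcns1 (Kv9.1) was 2.37-fold higher in cortex, with 3 cortex arrays between 8.39 and 8.57 and the 17-month array at 7.46, still above the highest hippocampus array at 7.37. Leaving out the 17-month array raised the difference from 1.25 to 1.50. Kcnb2 (Kv2.2), Kcns2, Kcns3, Kcng1, Kcng2, Kcng3, and Kcng4 did not pass the test. Both probes of Kcng2 passed the filter and went opposite ways (-1.52 and 1.02), so its mean describes neither.

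**Figure D3:**
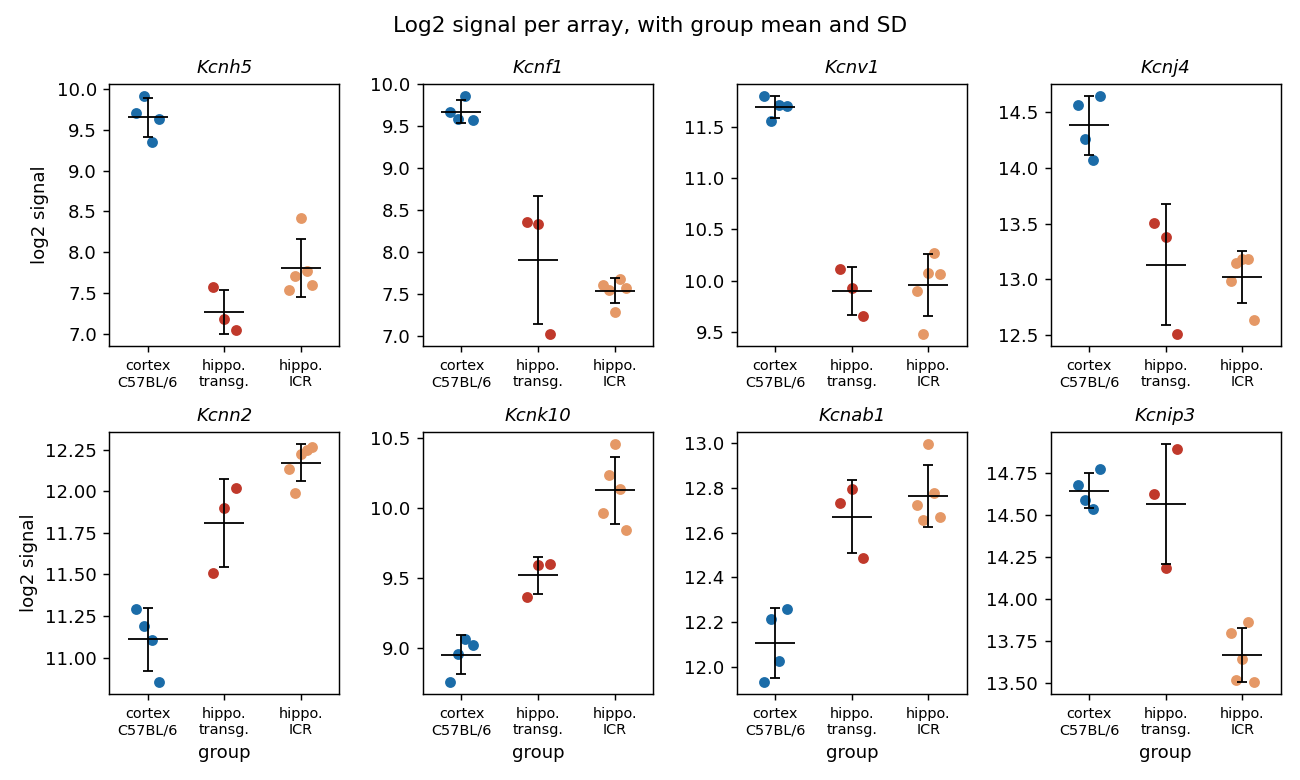
Log2 signal on each array for 8 genes, by group, with the group mean (wide bar) and SD (error bar). For Kcnh5, Kcnf1, Kcnv1, and Kcnj4 the 4 cortex arrays lie above all hippocampus arrays, for Kcnn2, Kcnk10, and Kcnab1 below them, and for Kcnip3 cortex and transgenic arrays lie above the ICR arrays.

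Of the Kv1 channels and their β subunits, which sit on axons and set spike threshold, 4 of 10 measured members were higher in cortex and 1 lower. Kcna3 (1.05), Kcna2 (0.76), and Kcna6 (0.73) were higher with no overlap between the regions. Kcnab3, a β subunit, differed by 0.63, but its arrays overlapped, and it lost its call with cortex and hippocampus as plain groups of 4 and 8. Kcnab1, the β subunit that confers fast inactivation, was lower. It gave 11.93, 12.21, 12.03, and 12.26 in cortex, 12.73, 12.79, and 12.49 on the transgenic arrays, and 12.72, 12.66, 13.00, 12.78, and 12.67 on the ICR arrays, all above the cortex arrays. The difference was -0.61 (SE 0.10), a 1.53-fold lower signal in cortex (limma, adjusted p = 5.99e-04). Kcna1 had means of 13.05 in cortex, 13.23 on the transgenic, and 13.50 on the ICR arrays and did not pass (adjusted p = 0.143). Kcna4 had means of 10.80, 10.98, and 10.62 (adjusted p = 0.999).

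The Kv3 channels, which let interneurons fire fast, showed small differences. Kcnc1, Kcnc2, and Kcnc4 were higher in cortex by 0.28, 0.43, and 0.40, and all 3 lost their calls with the position of the array on its slide as a block. Kcnc1 lost its call without the 4-month array (adjusted p = 0.0605), and Kcnc2 without the 4-month or the 17-month array (adjusted p of up to 0.0845). Markers of interneurons were also partly higher in cortex, with 2 of 7 called, Pvalb (0.76) and Vip (1.74), and their part in the Kv3 values was not tested.

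The Kv4 channels, which carry the A-type current of dendrites, and the KChIP subunits that bind them differed in both directions. Kcnd2 (Kv4.2), the main Kv4 channel of hippocampal pyramidal cells, gave 12.36, 12.26, 12.11, and 12.20 in cortex, 12.51, 12.65, and 12.40 on the transgenic arrays, and 12.79, 12.75, 13.02, 12.78, and 12.79 on the ICR arrays. All cortex arrays were below all hippocampus arrays. The difference was -0.44 (SE 0.08, limma adjusted p = 0.00129), and against the transgenic arrays alone it was -0.29 with an adjusted p of 0.0543. Kcnd3 and Kcnd1 did not pass. Kcnip1 (0.78) and Kcnip4 (0.75) were higher in cortex. Kcnip2 was called lower (-0.62, adjusted p = 0.0403), with a cortex range of 7.84 at 17 months to 9.29 at 1.5 months. The call was lost without any 1 of 9 arrays, among them the 17-month array, without which the difference was -0.33, and the highest adjusted p was 0.0707.

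Kcnip3 (also called DREAM or calsenilin) is a calcium-binding KChIP, and its signal set the ICR arrays apart from the rest. It gave 14.68, 14.59, 14.54, and 14.77 in cortex, 14.62, 14.18, and 14.89 on the NCSTN, MAPT, and 5xFAD arrays, and 13.79, 13.52, 13.64, 13.86, and 13.50 on the ICR arrays. Cortex and transgenic hippocampus overlapped, and all 7 C57BL/6 arrays lay above all 5 ICR arrays. Cortex differed by 0.08 from the transgenic arrays (adjusted p = 0.746) and by 0.98 from the ICR arrays (adjusted p = 2.10e-04). The transgenic and ICR arrays differed by 0.90 (adjusted p = 3.03e-03). The call between the regions was lost once a second probe, well above background on 4 arrays, was averaged in (difference 0.29, adjusted p = 0.291).

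Of the Kv7 channels, which carry the M-current that muscarinic receptors suppress, Kcnq5 was higher in cortex by 0.86 without overlap between the regions. Kcnq3 was higher by 0.53 (adjusted p = 0.0434), lost without any 1 of 7 arrays, with an adjusted p of up to 0.112. Kcnq1 did not pass the test.

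Among 12 measured inward rectifiers, 4 were higher in cortex and 1 lower. Kcnj4 (Kir2.3) and Kcnj12 (Kir2.2), classical strong rectifiers, had the largest differences. Kcnj4 gave 14.56, 14.26, 14.07, and 14.64 in cortex, 13.50, 13.38, and 12.51 on the transgenic arrays, and 12.99, 13.14, 13.18, 13.18, and 12.64 on the ICR arrays, a 2.46-fold higher signal in cortex (log2 difference 1.30, SE 0.19, limma adjusted p = 3.97e-04). Kcnj12 was 2.86-fold higher (log2 difference 1.52, SE 0.15). On the 5xFAD array both genes had their lowest value of the 12, at 12.51 and 7.96. Kcnj2 (Kir2.1, 0.72) and Kcnj14 (Kir2.4, 0.43) were called higher, but Kcnj2 lost the call without any 1 of 8 arrays and Kcnj14 without any 1 of 3, with adjusted p of up to 0.143 and 0.0929.

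Kcnj10 (Kir4.1), the potassium-buffering channel of astrocytes, was called lower in cortex (-0.46, adjusted p = 0.0325). Its signal was 13.94, 14.19, 13.50, and 13.78 in cortex, 13.93, 13.66, and 14.49 on the transgenic arrays, and 14.62, 14.60, 14.63, 14.56, and 14.60 on the ICR arrays. The cortex and transgenic arrays overlapped and the ICR arrays were uniformly high. The difference was -0.17 against the transgenic arrays (adjusted p = 0.527) and -0.75 against the ICR arrays (adjusted p = 3.66e-03). The call was lost without the 1.5-, 17-, or 22-month array. Among astrocyte markers 4 of 6 were lower in cortex, Gfap (-1.73), Aqp4 (-0.63), Gja1 (-0.45), and Slc1a3 (-0.28). Aldh1l1 was higher (0.42, adjusted p = 0.0121), and Gjb6 had a difference of 0.24 without passing. The part of these cells in the Kcnj10 value was not tested. Kcnj16, the partner of Kcnj10 in astrocytes, had means of 10.81, 10.79, and 11.11 in cortex, transgenic, and ICR hippocampus (adjusted p = 0.36). The G protein-gated Kcnj3, Kcnj6, and Kcnj9 and the ATP-sensitive Kcnj8 and Kcnj11 did not pass either, with adjusted p from 0.0747 to 0.686.

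The two-pore channels set the resting leak, and 5 of their 11 measured members were higher in cortex and 2 lower. Kcnk4 (TRAAK), a channel gated by membrane stretch, gave 9.08, 9.12, 9.22, and 9.08 in cortex, 7.79, 8.21, and 7.64 on the transgenic arrays, and 7.71, 7.81, 8.14, 8.13, and 7.83 on the ICR arrays. The cortex values lay within 0.14 of each other, and the signal was 2.33-fold higher in cortex (log2 difference 1.22, SE 0.12, limma adjusted p = 2.38e-05). Kcnk2 (TREK1, 1.15), Kcnk3 (TASK1, 1.12), Kcnk1 (TWIK1, 0.70), and Kcnk12 (THIK2, 0.62) were also higher with no overlap between the regions.

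Kcnk10 (TREK2), from the same subfamily as Kcnk2 and Kcnk4, went the other way. It gave 8.75, 8.96, 9.07, and 9.02 in cortex, 9.36, 9.59, and 9.60 on the NCSTN, MAPT, and 5xFAD arrays, and 9.97, 10.23, 10.46, 10.13, and 9.84 on the ICR arrays. The 3 groups formed 3 separate steps, with cortex lowest. The difference of cortex from the transgenic arrays was -0.57 (adjusted p = 0.0160) and that from the ICR arrays -1.18 (adjusted p = 3.49e-05). The transgenic and ICR arrays differed by -0.61 (adjusted p = 0.0140). Kcnk13 (THIK1), known as a resting channel of microglia, was lower in cortex too (-0.64, SE 0.15, limma adjusted p = 0.00543). Its signal ran from 8.23 to 8.84 in cortex and from 8.78 to 9.37 in hippocampus, with the 22-month cortex array above the lowest hippocampus array, and the call was lost with the deposited matrix. None of the 6 microglia markers passed the test between cortex and hippocampus, with differences from -0.45 to -0.054.

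Of 8 measured calcium- and sodium-activated channels, 4 were higher in cortex and 1 lower. Kcnt1 (Slack), a sodium-activated channel, gave 11.10, 11.05, 11.10, and 11.16 in cortex, 10.10, 9.83, and 10.45 on the transgenic arrays, and 10.02, 9.50, 9.79, 9.55, and 9.57 on the ICR arrays. Cortex hardly varied with age, the 5xFAD array was the highest of the hippocampus arrays, and the difference was 1.20 (SE 0.13, limma adjusted p = 3.91e-05). Kcnt2, its relative, was higher by 0.83. Kcnma1, the pore of the BK channel, and Kcnmb4, the neuronal β subunit of BK, were higher by 0.62 and 0.79, each without overlap between the regions. Kcnn2 (SK2), a small-conductance channel of dendritic spines, was lower. It gave 11.29, 11.19, 11.11, and 10.85 in cortex, 11.51, 11.90, and 12.02 on the transgenic arrays, and 12.14, 11.99, 12.22, 12.25, and 12.26 on the ICR arrays. All hippocampus arrays exceeded all cortex arrays, and the signal was 1.84-fold lower in cortex (log2 difference -0.88, SE 0.11, limma adjusted p = 1.49e-04). Kcnn3 and Kcnmb2 did not pass, and Kcnn1 was well above background on no array.

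Genes that assist or accompany these channels were read from a list of 29, of which 24 were measured. Of these, 7 were higher in cortex and 5 lower, beside 20.7% and 19% of all genes, with a median difference of 0.14. Dpp10, an auxiliary subunit of Kv4, was higher by 1.80 (adjusted p = 2.32e-05), and Dpp6, its relative, had a difference of -0.46 (adjusted p = 6.11e-04). Kcne4 (1.25) and Lrrc55 (0.90), auxiliary subunits of Kv7 and BK channels, were higher, and Kctd12, a subunit of GABA-B receptors, was lower (-1.45, adjusted p = 5.11e-06). The widest difference was that of Kcne2 (-6.16), a gene with strong expression in choroid plexus, whose markers Ttr (-7.52) and Otx2 (-5.89) differed as widely.

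The hippocampus groups were compared with each other to see how far strain, sex, age, and model move the same genes. Between transgenic and ICR arrays 13 of the 75 genes passed (17.3%, beside 15.6% of all genes), of which 3 were higher in the transgenic group (beside 7.12% of all genes) and 10 lower (beside 8.45%). The 3 were Kcnip3, Kcna4, and the noncoding Kcnq1ot1, and the 10 were Kcna2, Kcnab2, Kcnb2, Kcnd2, Kcng2, Kcng3, Kcnh2, Kcnh7, Kcnj9, and Kcnk10. Kcng2 is again the mean of 2 probes that went opposite ways between the regions. Kcng3 had the smallest p-value (log2 difference -0.79, adjusted p = 7.62e-04), with 4.11 to 4.15 on the transgenic and 4.72 to 5.15 on the ICR arrays. Kcnj9 (Kir3.3) differed by -0.76 (adjusted p = 1.87e-03). Sex differs between these groups by the genes above and cannot be told apart from strain, age, or model.

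The transgenic arrays came from 1 pool for each line, so their differences are descriptions without a test, and age differs with the line. The NCSTN and MAPT arrays lay on position 2 of their slides and the 5xFAD array on position 4. Line, age, and position therefore cannot be told apart for the 5xFAD array. On the 5xFAD array the 75 genes had a median of -0.33 in log2 signal against the mean of the NCSTN and MAPT arrays, where all genes had a median of -0.061. Only 21 of the 75 lay above 0 (28%), beside 44.8% of all genes. The 5xFAD array had the lowest signal of the 3 for 49 genes (65.3%, beside 48.6% of all genes) and the highest for 18 (24%, beside 38.9%). At 2-fold or more, 6 genes were lower on the 5xFAD array (8%, beside 4.06% of all genes) and 1 was higher (beside 5.84%). Under 7 other ways of processing and the one used here, the median over the potassium channel genes lay between -0.33 and -0.15. The filters of these settings kept from 71 to 89 of them. Over all genes the median lay between -0.066 and 0.045, the latter in the deposited matrix, where the potassium channel genes had -0.15. Between the NCSTN and MAPT arrays the median difference was 0.042, beside 0.021 for all genes. Neuronal markers were lower on the 5xFAD array too. All 7 interneuron markers lay below 0 against the mean of the NCSTN and MAPT arrays, with a median of -0.49 (Sst -1.14, Vip -0.93), as did 6 of 7 markers of cortex layers, also with a median of -0.49, the other being Rspo1 (0.95). Their part in the lower values of the potassium channel genes was not tested.

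The 6 genes lower on the 5xFAD array came from several families. Kcng1 (Kv6.1), a modifier subunit, gave 11.98, 11.45, and 9.94 on the NCSTN, MAPT, and 5xFAD arrays. Kcnj11 (Kir6.2), the pore of ATP-sensitive channels, gave 6.20, 6.18, and 4.71. Kcnf1 and Kcnh7, both higher in cortex, had 5xFAD differences of -1.32 and -1.03, and Kcnab2, the most abundant β subunit of Kv1, one of -1.27. Kcnj5 (-1.04) was well above background on 6 of the 12 arrays. In each case the NCSTN and MAPT arrays lay closer to each other than to the 5xFAD array, which the choice of genes by a low 5xFAD value makes likely.

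Kcnk6 (TWIK2), a two-pore channel also known in macrophages, was the 1 gene at least 2-fold higher, with 8.50, 8.50, and 10.16 on the NCSTN, MAPT, and 5xFAD arrays. Its other values were 8.90 to 9.36 in cortex and 8.11 to 8.56 on the ICR arrays, so the 5xFAD array was the highest of the 12. Kcna5 (0.97) and Kcna1 (0.84) followed below 2-fold. On the same array 4 of 6 microglia markers were at least 2-fold higher, namely Trem2 (3.24), Cx3cr1 (1.92), Aif1 (1.37), and Csf1r (1.31), with P2ry12 at 0.47 and Tmem119 at 0.57. The mean log2 signal of the microglia list was 12.5 on the 5xFAD array, 11.0 on the NCSTN and MAPT arrays, and 10.8 to 11.3 on the other 9. Among astrocyte markers Gfap (1.80) and Aqp4 (1.19) were at least 2-fold higher, 2 of 6. The part of these cell types in the Kcnk6 value, and in the lower values of the other genes, was not tested.

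**Figure D4:**
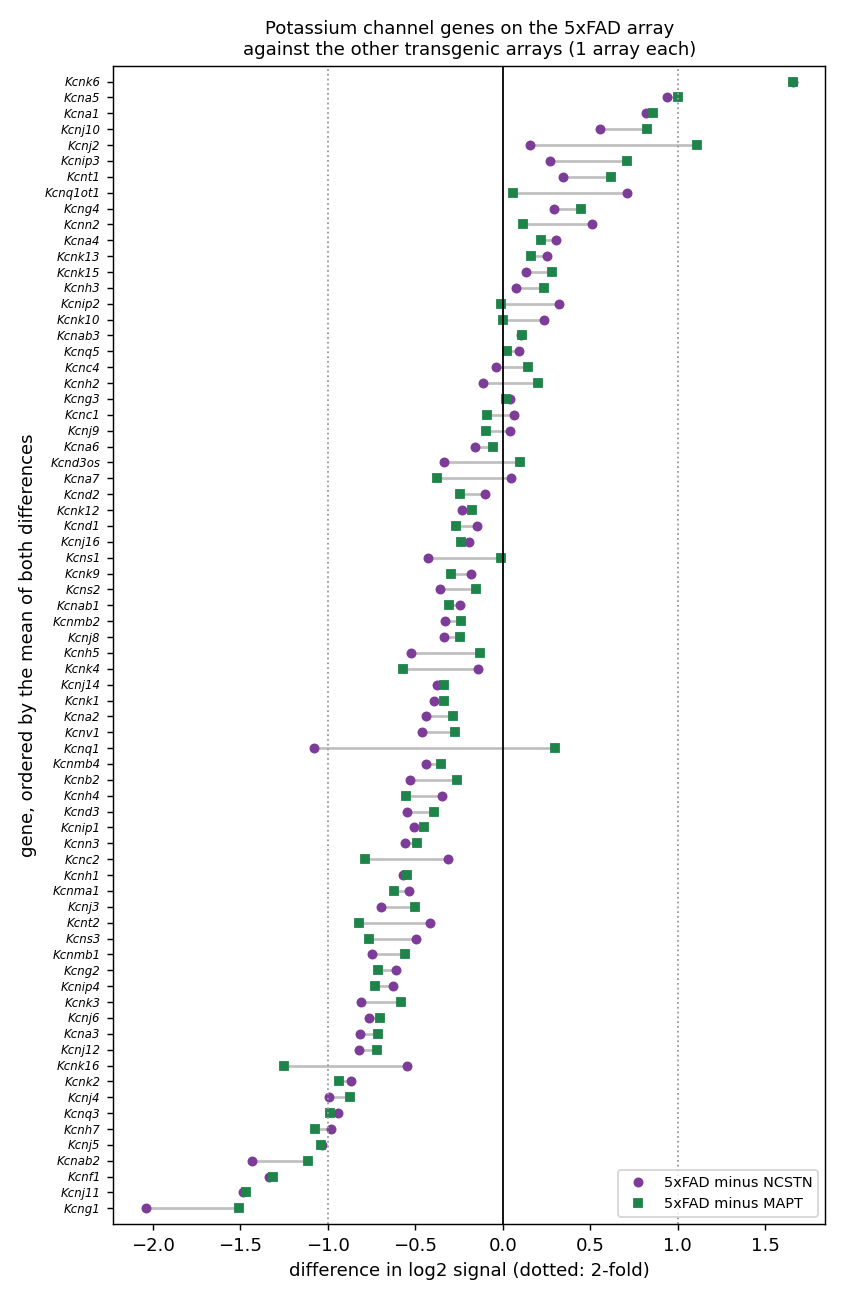
Differences in log2 signal of the 5xFAD array from the NCSTN array (circles) and from the MAPT array (squares) for 72 of the 75 potassium channel genes, 1 array per line, so without error. Most genes lie left of 0, Kcng1 lowest and Kcnk6 highest, and dotted lines mark 2-fold.

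On the NCSTN array Kcng1 (1.29) and Kcnq1 (1.23) were at least 2-fold above the mean of the other transgenic arrays, beside 1.41% of all genes. On the MAPT array Kcnj2 was at least 2-fold below (-1.03, beside 2.28% of all genes), with 4.61 beside 5.56 on the NCSTN and 5.72 on the 5xFAD array. Over the 3 transgenic arrays 11 genes spanned 2-fold or more (14.7%, beside 14.3% of all genes). Without the 5xFAD array 1 did. A range over fewer arrays can only be equal or smaller, and the same count over all genes was not made.

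Age was compared within cortex by setting the 17- and 22-month arrays against the 1.5- and 4-month arrays with limma. No potassium channel gene passed an adjusted p of 0.05, and none of the 15438 genes did (0%), whereas 4 potassium channel genes had an unadjusted p below 0.05 (5.33%, beside 7.35% of all genes). The smallest p belonged to Kcng4 (Kv6.4), a modifier subunit, with 5.70, 6.01, 4.81, and 4.94 at 1.5, 4, 17, and 22 months (log2 difference -0.98, adjusted p = 0.432). Kcnj8 (Kir6.1), the ATP-sensitive pore of pericytes and smooth muscle, gave 5.33, 5.92, 6.34, and 6.49 in the same order (log2 difference 0.79, adjusted p = 0.675). Old and young arrays did not overlap for either gene. Both are among the largest age differences of these data, which makes this likely, and the share of all genes without overlap was not counted. The young arrays lay on positions 1 and 2 of their slides and both old arrays on position 4, so age and position cannot be told apart.

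Over the 4 cortex arrays 10 genes spanned 2-fold or more (13.3%, beside 8.12% of all genes), 8 of them with a signal well above background on every array. Kcnq1ot1, the noncoding RNA of the Kcnq1 locus, read by 2 probes, ran from 8.58 at 1.5 months to 7.19 at 22 months, with the middle ages at 7.84 and 7.83. Kcnip2 and Kcns1 were lowest at 17 months (7.84 and 7.46) and at 22 months lay near the young arrays. The 17-month array also had the highest mean log2 signal of choroid plexus markers in cortex. It was 8.54 there, beside 4.24, 4.67, and 5.53 at 1.5, 4, and 22 months, and its part in these values was not tested. Kcnj2 was lowest at 22 months (4.86, beside 5.83 to 6.19). Kcnj5 reached 5.09 at 22 months, the 1 cortex array on which it was well above background. Without the 22-month array 5 genes spanned 2-fold, and without the 17-month array 6 did. Leaving out an array can only keep or lower such a count, and it was not made over all genes.

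**Figure D5:**
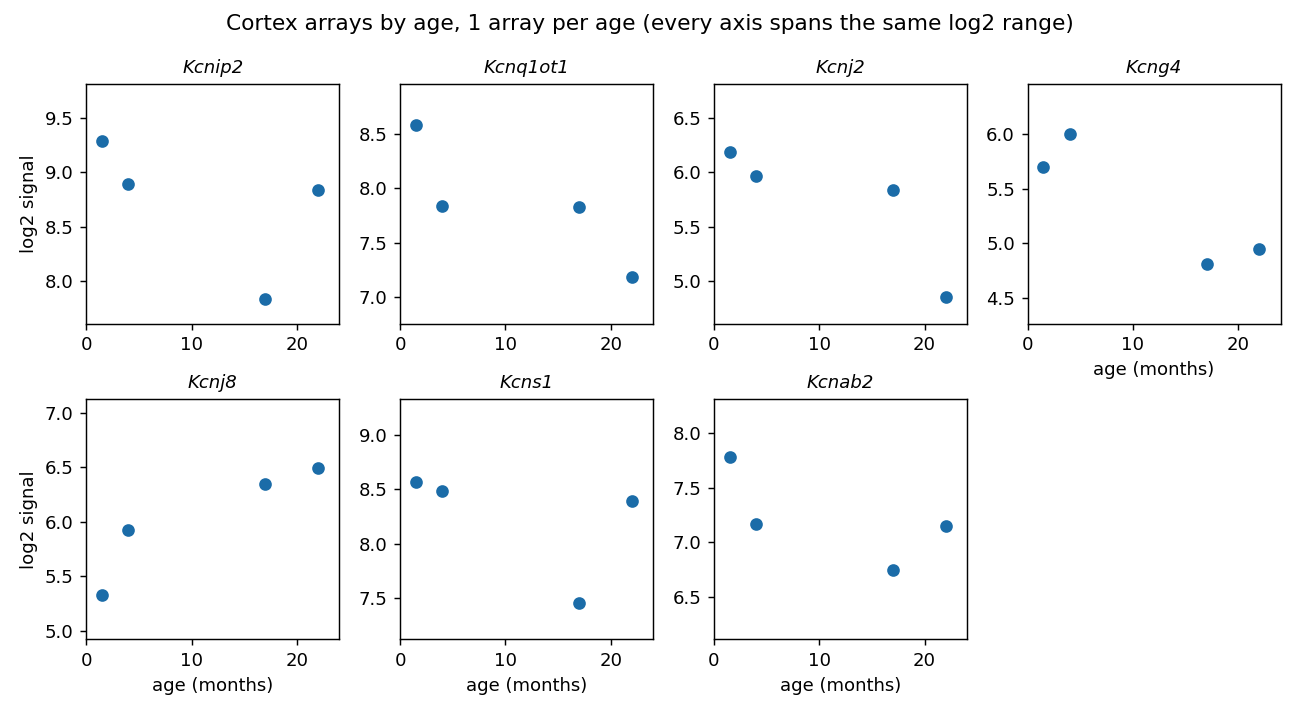
Log2 signal against age in months on the 4 cortex arrays, 1 array per age, for 7 of the 8 genes that spanned 2-fold or more and were well above background on all 4. Kcng4 is lower and Kcnj8 higher on the 17- and 22-month arrays, and Kcnip2 and Kcns1 are lowest at 17 months.

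Within the ICR hippocampus the Aβ arrays were set against the streptozotocin arrays, with 2 doses standing in for replicates on each side. One gene passed the adjusted p of 0.05 by limma, beside 1.88% of all genes. It was Kcnk15 (TASK5), a two-pore subunit that gives no current alone, and it is named here after its value was seen. Its signal was 4.85 and 4.79 with Aβ and 5.41 and 5.43 with streptozotocin (log2 difference -0.60, adjusted p = 0.0386), and it was well above background on 11 of the 12 arrays. The call was lost under 7 other settings and without any 1 of 8 arrays of the 9 fitted. An unadjusted p below 0.05 was found for 13 genes (17.3%, beside 13.9% of all genes). Kcnt2 gave 5.55 and 5.68 with Aβ and 6.41 and 6.22 with streptozotocin (-0.70, adjusted p = 0.0632), and Kcnh7 6.45 and 6.82 against 7.64 and 7.18 (-0.78, adjusted p = 0.257).

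The median difference between Aβ and streptozotocin was -0.19 over the 75 genes, of which 18 lay above 0 (24%), beside -0.040 and 41.7% over all genes. Choroid plexus markers moved with the same contrast, with a mean log2 signal of 11.8 and 12.0 on the Aβ arrays and of 6.92 and 7.33 on the streptozotocin arrays, and their part in these values was not tested. Scopolamine, given 30 min earlier, had 1 gene at least 2-fold above the rest of the ICR arrays, Kcnj8, beside 1.76% of all genes. Its signal was 6.94, and 4.96 to 6.09 on the others. Kcnmb1 had the widest range of the ICR arrays (3.30 to 5.76) and was well above background on 3 of the 5. Over the ICR arrays 8 genes spanned 2-fold or more (10.7%, beside 13.1% of all genes). Without streptozotocin at 2.5 mg/kg 3 did, a count that can only stay or fall with fewer arrays and was not made over all genes.

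The other 14 potassium channel genes did not pass the filter, and 13 of them are named here. Kcnk18, Kcnmb3, Kcnn1, and Kcnv2 were well above background on 0 arrays, Kcnj1, Kcnk7, and the noncoding Kcnmb4os1 on 1, Kcnj15 on 2, Kcna10 and Kcnn4 on 3, Kcnh6 on 4, and Kcnh8 and Kcnk5 on 5. Just inside the threshold, Kcnj5 and Kcnmb1 were well above background on 6 arrays, with 1 and 0 of the 4 cortex arrays among them. A gene measured in cortex alone cannot reach 6 arrays while one measured in hippocampus alone can. With 4 arrays as the threshold 78 genes passed, and again 35 were higher in cortex and 8 lower. Kcnh6 (Erg2) was then called (log2 difference 1.50, adjusted p = 3.57e-03) and Kcnip3 was not. Kcnh8 and Kcnk5 also passed this filter, with differences of -0.69 and 1.24, and were not called.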

How the data were processed

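Total RNA of 12 mouse samples, each pooled from 3 animals, was measured on 1-colour Agilent 44K arrays. Per the labels and the methods, the authors extracted the spots with the Agilent Feature Extraction software. The deposited scanner files hold intensity values as processed by that software, with local background, and are not normalized between arrays. A series matrix with processed intensity values was also deposited, whose scale and centring are not stated. It was used only as an alternative. The labels name Cy5, whereas the files hold the green channel, and the files give neither slide nor scan.

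Each array held 110 to 234 outlier spots, and no spot was saturated. A value was left out where every spot of a probe on an array was an outlier. This held for 60 values, 0 of them of potassium channel genes. Other outlier spots stayed in the averaged signal and were left out only of the well-above-background mark and of the percentile scaling. Spots of 1 probe were averaged, log2 of the processed signal was quantile normalized over the 12 arrays, and probes well above background on at least 6 arrays were kept. Between 63.5% and 75.8% of probes were well above background on an array. Probe accessions were matched without versions to the RefSeq gene table of GRCm38.p6, which named 27508 of 39429 probes (69.8%), and probes of 1 gene were averaged. Values of 1 gene are compared between arrays, and signal was ranked between genes only to choose genes to name.

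Regions were compared by limma 3.58.1 (R 4.3.3; lmFit, contrasts.fit, eBayes) with 3 groups over 12 arrays. Age and Aβ against streptozotocin were compared in a second fit of the 9 arrays without transgenic mice, in 5 subgroups. Calls are at a Benjamini-Hochberg adjusted p of 0.05 over all 15438 genes. Arrays of a group are different models, so p-values measure the spread between these pools, and precision is limited by how many arrays there are. Within a group, the mean of the other arrays was subtracted from each array, without a test. A few genes (15425 of 15438 had a value on every array) were left out of such counts.

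The members and lists were chosen with earlier results of these data known. Genes named are the 10 largest called differences between the regions in each direction, the 5 largest for age and for Aβ against streptozotocin, the 2 highest and 2 lowest of each array, the 5 brightest, and a list of textbook members, with further genes named where a family is counted. Marker and partner lists are those given in the report, with oligodendrocyte (0 of 6 higher in cortex, 2 lower), pericyte and endothelium (2 of 6 higher, 0 lower), thalamus and habenula (1 of 6 higher, 2 lower), and pituitary markers (1 of 3 measured, not called). Alternatives were scaling to the 75th percentile, normexp with an offset of 50, the deposited matrix, no filter, a filter on all 12 arrays, the filter of the methods (1.4-fold over local background), the brightest probe, 2 groups, a 2-fold or 1.5-fold threshold, and each array left out. Normexp used the median foreground, because the files used here hold no mean foreground. A filter on 4 arrays and the position on the slide, read from spot coordinates, were chosen after seeing the data. Python 3.11.15 with numpy 2.4.6, pandas 2.3.3, and matplotlib 3.10.9 was used for the rest. Some genes that the naming rule covers are not reported here, and all counts include them.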

Additional observations from a re-analysis of the deposited data

Results flagged for a closer look

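Over 55 named genes, 110 groups of 4 or 5 arrays were searched for a single array far from the others by Dixon's ratio, and 7 were found. Some of the 55 genes were named because they were highest or lowest on an array, so no chance rate can be set beside this count. On the 17-month cortex array Kcnh7 had a log2 signal of 8.50 (nearest 7.84), Kcnj11 of 6.23 (nearest 6.81), and Kcns1 of 7.46 (nearest 8.39). On the 1.5-month cortex array Kcnt2 had 6.49 (nearest 6.75). On the array of streptozotocin at 2.5 mg/kg Kcnh5 had 8.41 (nearest 7.77), Kcnd2 13.02 (nearest 12.79), and Kcna4 10.73 (nearest 10.61). Of these genes, Kcnh7, Kcns1, Kcnt2, Kcnh5, and Kcnd2 kept their call between cortex and hippocampus with that array left out.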

How the results depend on the processing

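With 1 array left out, between 31 and 37 genes were higher in cortex and between 6 and 8 lower. At 2-fold beside the adjusted p these were 15 and 0, against the transgenic hippocampus alone 4 were lower, and with the position on the slide as a block 5 were lower. The other settings kept both counts within 1.5 times. Between Aβ and streptozotocin 0 genes passed with scaling to the 75th percentile, normexp, the deposited matrix, no filter, a filter on all arrays, the filter of the methods, or only the 4 arrays compared, and between 0 and 1 with 1 array left out. For age, 0 passed throughout. Genes with a 2-fold range numbered 1 in cortex, 4 in the transgenic, and 0 in the ICR arrays with normexp. At 1.5-fold they were 25, 32, and 24. In the ICR arrays they were 14 with no filter and 14 with the filter of the methods. With 1 array left out they ran from 5 to 9 in cortex, from 1 to 10 in the transgenic, and from 3 to 8 in the ICR arrays. Such counts can only stay or fall with fewer arrays. Values against the rest of a group that turned sign were Kcnj11 on MAPT (-0.021 without 5xFAD, up to 1.47 without NCSTN), Kcnk6 on NCSTN (0.0030 without 5xFAD, -1.66 without MAPT), Kcnj5 at 4 months (0.13 without 22 months, -1.01 without 1.5 months), and Kcnj5 with scopolamine (-0.082 in the matrix). The cause was not tested. The matrix moved the median of all genes between Aβ and streptozotocin to -0.21. Slide and scan as a block were not run, since the files give neither. No paired analysis was possible because the cortex and hippocampus arrays came from different mice. Kcnj5 and Kcnmb1 were well above background on 6 of the 12 arrays and Kcnk15 on 11, which limits their values.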
